A study of Mus musculus with 6 samples.

Results

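The cytosolic ribosomal proteins are the proteins that, with the ribosomal RNAs, build the ribosome of the cytoplasm. Their genes were taken by name, as all genes named Rpl or Rps with a number and at most a closing letter or a letter and a number, together with Rplp0, Rplp1, Rplp2 and Rpsa, and without genes named as pseudogenes. The rule uses no measured value and took 83 of the 41819 genes in the table. By name alone, 51 are counted to the large subunit (Rpl) and 32 to the small subunit (Rps). The 83 genes are called members here. After edgeR's filter on low counts, 80 members remained among 11509 tested genes. The 3 members that did not pass were Rpl3l, with 0 counts in every dish, Rpl10l, with 1 count in control dish 3, and Rpl39l, with 1 count in control dish 2, 1 in hPARG dish 2 and 2 in hPARG dish 3.

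The RNA came from a single clone of mouse 3T3 fibroblasts, transduced with a lentiviral cassette from which doxycycline induces human PARG (hPARG), the enzyme that breaks down poly(ADP-ribose). Of 6 dishes, 3 received 500 ng/ml doxycycline for 72 h (hPARG) and 3 received none (control), and all 6 were kept in medium with puromycin. The labels describe the samples as wells of a 6-well plate and the methods as 10 cm dishes, and both are called dishes in what follows. The comparison asks which mRNAs differ once hPARG is induced. None of the 6 sequenced dishes held cells without the cassette that received doxycycline, so effects of the drug and of hPARG cannot be told apart in these values, and the human transgene has no value of its own in the table of mouse genes. Because all dishes come from 1 clone, p-values measure only the spread between dishes of that clone, which may be technical. The depth was 25263818, 22512587 and 21619908 counts for the control dishes, in the order of their numbers, and 22136902, 23897120 and 22482282 counts for the hPARG dishes. At this depth the detection limit of 3 counts is 0.139 counts per 1000000 counts (CPM) or less, which covers counting error only.

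A ribosome holds each of its proteins in a fixed proportion, and cells spend much of their transcription on these mRNAs. Most of the mRNAs are short, abundant and stable. They begin with a terminal oligopyrimidine (TOP) tract, through which mTOR signalling and the protein LARP1 regulate their translation. Fibroblasts that divide in culture need a steady supply of ribosomes, and several free ribosomal proteins also act outside the ribosome, for example by binding MDM2 when ribosome assembly is disturbed.

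The fibroblast label was checked against markers. Of 12 fibroblast markers, 10 passed the filter, and the 12 together took from 0.715% to 0.984% of a dish's counts. Vim was the most abundant of them with a mean of 3736 CPM, followed by Col1a2 with 2094 CPM, while Dcn had 40 and Lum 5 counts over all dishes. Of the 10, 9 were higher in hPARG cells, against 50.9% of all tested genes, with a median log2 fold change of 0.28. In edgeR's test 0 of the 10 had an FDR under 0.05 and 4 an unadjusted p under 0.05, against 3.95% of all tested genes. With the term for the dishes numbered 2 that is described below, 4 were higher (Col1a1, Col3a1, Thy1 and Fn1) and 1 lower (Pdgfra) at an FDR under 0.05, against 1.53% of all tested genes in either direction, and these 5 were named after their values were seen. Without the dishes numbered 2, only Col1a1 had an FDR under 0.05 (log2 fold change 0.63, FDR = 0.00674). The 6 epithelial markers had no tested gene and at most 0.00012% of the counts of a dish, led by Krt8 with 0.353 CPM and Cdh1 with 0.234 CPM. Of 5 endothelial markers only Kdr was tested (0.519 CPM), next to Cdh5 with 0.283 CPM and Emcn with 0 counts. Of 6 leukocyte markers only Cd68 was tested (0.779 CPM), next to Itgam with 0.247 CPM, and Adgre1 and Cd3e had 0 counts. The endothelial and leukocyte lists each held at most 0.000143% of the counts of a dish.

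The dishes numbered 2 stood apart from the others in both groups, and ribosomal protein mRNAs were among those that showed it most. For each member, the log2 CPM of dish 2 minus the mean of dishes 1 and 3 of the same group was below 0 for all 80 tested members in either group. The median of this difference was -0.46 for control dish 2 (range -0.77 for Rps21 to -0.00 for Rpl4) and -0.51 for hPARG dish 2 (range -1.07 for Rpl35a to -0.01 for Rpl4). Over all 11509 tested genes the medians were 0.01 and 0.02. Dish 2 was the lowest of its group for 79 members among the control dishes and for 79 among the hPARG dishes, and in both groups at once for 78 members, against 3580 of all tested genes. The members thus shared a deviation that the groups do not explain, and the main log2 fold changes of the members are given below with and without these dishes.

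This shift followed transcript length. The members' annotated principal transcripts had a median of 767.5 bases (from 345 bases for Rps27 to 5130 for Rps15a), against 2866 bases over all tested genes, and 67 of the 80 members were among the 1151 tested genes with the shortest transcripts. The other 1084 of these genes had median shifts of -0.37 in control dish 2 and -0.41 in hPARG dish 2, where the 67 members had -0.48 and -0.52, and the 1151 genes with the longest transcripts, none of them a member, had medians of 0.44 and 0.43. The 714 other tested genes with transcripts under 1000 bases had median deviations from their 6-dish mean of -0.29 in control dish 2 and -0.27 in hPARG dish 2, where the members had -0.39 and -0.28. Short genes outside the ribosome therefore moved the same way as the members. Their medians lay nearer to 0, though only slightly so for the deviation in hPARG dish 2, and this difference was not tested. Among the members themselves, Spearman's rho between shift and transcript length was 0.42 for control dish 2 and 0.27 for hPARG dish 2, and between the shifts of the 2 groups it was 0.67. These correlations are across 80 genes that share the same libraries, so they describe these dishes and carry no p-value. The cause of the shift was not tested.

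**Figure D1:**
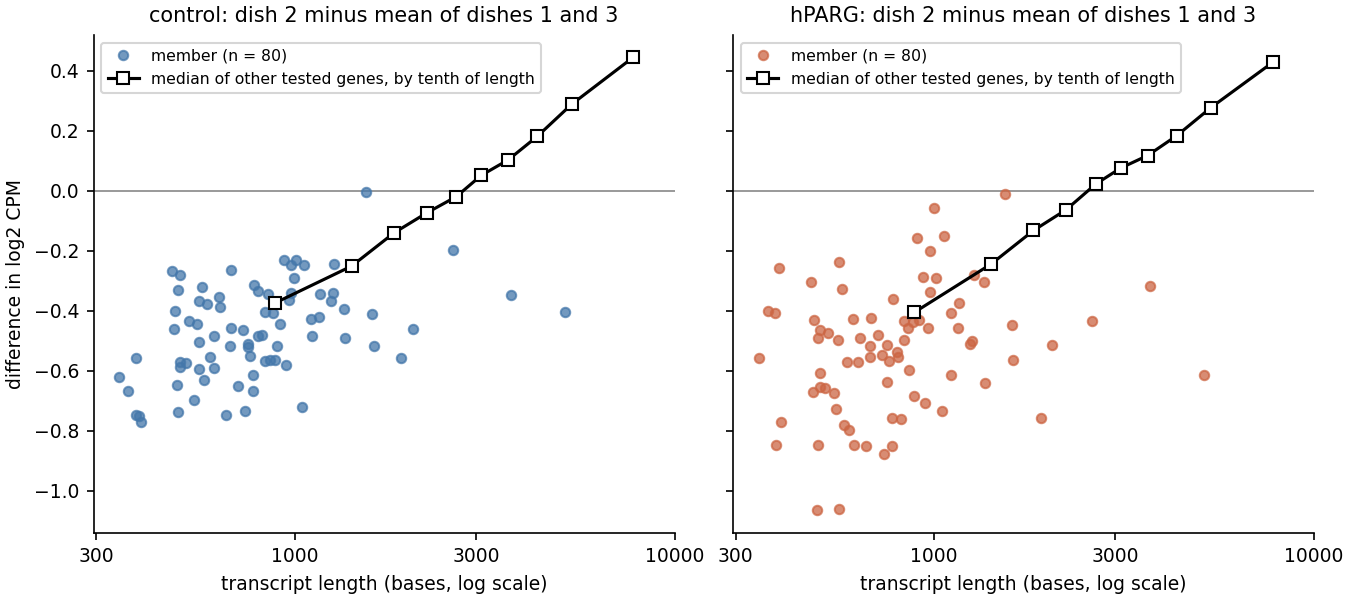
Difference in log2 CPM between dish 2 and the mean of dishes 1 and 3, against transcript length in bases on a log scale, in the control (left) and hPARG (right) dishes. Points are the 80 tested members and squares the medians of the other tested genes in 10 bins of length, which run from -0.37 to 0.44 in the control, while the members have medians of -0.46 and -0.51.

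The members' share of all counts showed the same order of dishes. Control dishes 1 to 3 had 10.7%, 8.63% and 12.2% of their counts on the 83 members, and hPARG dishes 1 to 3 had 11.98%, 9.07% and 13.0%. The Wilson 95% intervals of these shares reach at most 0.0139 points to either side and cover counting error only. Dish 2 was the lowest and dish 3 the highest of each group, and the groups overlapped. The mean was 10.5% ± 1.78 (SD, n = 3) in the control and 11.3% ± 2.04 (SD, n = 3) in hPARG cells, a difference of 0.858 percentage points that is smaller than the spread between dishes (exact permutation test, two-sided, p = 0.6, where 3 dishes against 3 can give no p under 0.1). Without both dishes numbered 2, the means were 11.4% and 12.5%, a difference of 1.07 points, and with 2 dishes against 2 the exact p was 0.667. The difference depended on single dishes: it was -0.0714 points without control dish 2, 0.0337 without hPARG dish 3, 1.70 without control dish 3 and 1.998 without hPARG dish 2. Counts are relative to the other RNA of a dish, so in these bulk samples a change in the kind of cells and a change in RNA per cell cannot be told apart.

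Both subunits followed this order. The large subunit held 6.73%, 5.47% and 7.65% of the counts in control dishes 1 to 3 and 7.54%, 5.77% and 8.20% of those in hPARG dishes 1 to 3. The small subunit held 3.93%, 3.16% and 4.53% in the control and 4.44%, 3.30% and 4.8% in hPARG cells. In hPARG dish 3, 55 of the 80 tested members had their highest value of the 6 dishes, against 1475 of all tested genes. Control dish 2 was the lowest of the 6 for 66 members and hPARG dish 2 for 13. Dish 3 exceeded dish 1 by a median log2 CPM of 0.26 in the control and 0.13 in hPARG cells over the members, against 0.00 and 0.00 over all tested genes. The share of counts on the 37 genes of the mitochondrial genome, whose rRNA and tRNA genes had 0 counts, also differed between dishes, at 0.604%, 0.707% and 0.782% for the control dishes, in order, and 0.697%, 0.947% and 1.38% for the hPARG dishes. It was highest in hPARG dish 3. With these genes left out of the total, the members' share differed by 0.902 points between the groups (exact p = 0.6).

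**Figure D2:**
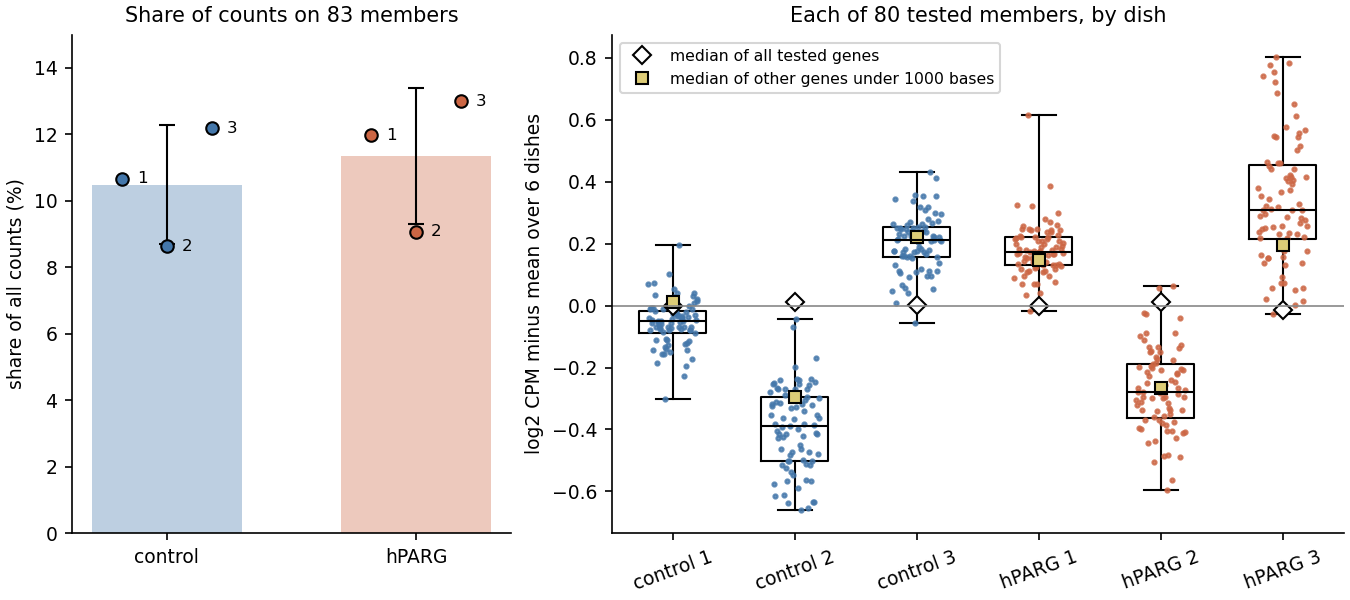
Left, the percent of all counts on the 83 members in each dish (points, numbered by dish) with the group mean (bar) and SD (error bar); right, log2 CPM of each of the 80 tested members minus its mean over 6 dishes, with boxes for quartiles, whiskers for the range, diamonds for the median of all tested genes and squares for the median of the 714 other genes under 1000 bases. The dishes numbered 2 lie lowest in both groups, with shares of 8.63% and 9.07%.

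As levels per length, the deposited RPKM values place these mRNAs among the most abundant of the cells. Of the 100 genes with the highest mean RPKM, 59 were members, and 6 of the 20 genes with the most counts in each dish were members. The median over the 80 tested members was 1070 RPKM, against 8.21 RPKM over all tested genes. Rpl41, which encodes the smallest protein of the ribosome, was the highest member, with 4710, 3439 and 5998 RPKM in control dishes 1 to 3 and 5664, 3777 and 5962 RPKM in hPARG dishes 1 to 3. It was followed by Rpl13 (3697 RPKM over 6 dishes), Rplp0 (3590), Rplp1 (3077), Rpl23a (2869), Rps26 (2493), Rpl19 (2488), Rpl36 (2484), Rps3a1 (2313) and Rps6 (2213). Some neighbours in this order differed by less than their spread between dishes, such as Rpl13 (3623 ± 363 RPKM in the control, SD, n = 3) and Rplp0 (3439 ± 595). In total, 46 members had more than 1000 RPKM and 5 tested members had less than 100, and the middle of the list was narrow, with a 2.08-fold range between the lower and the upper quartile. On counts per kilobase of all annotated exons, 7 of these 10 members were again among the 10 highest. The median was then 666, and the order differed, with Rplp0 (3749) above Rpl41 (3301) and Rpl13 at rank 14 (1211).

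**Figure D3:**
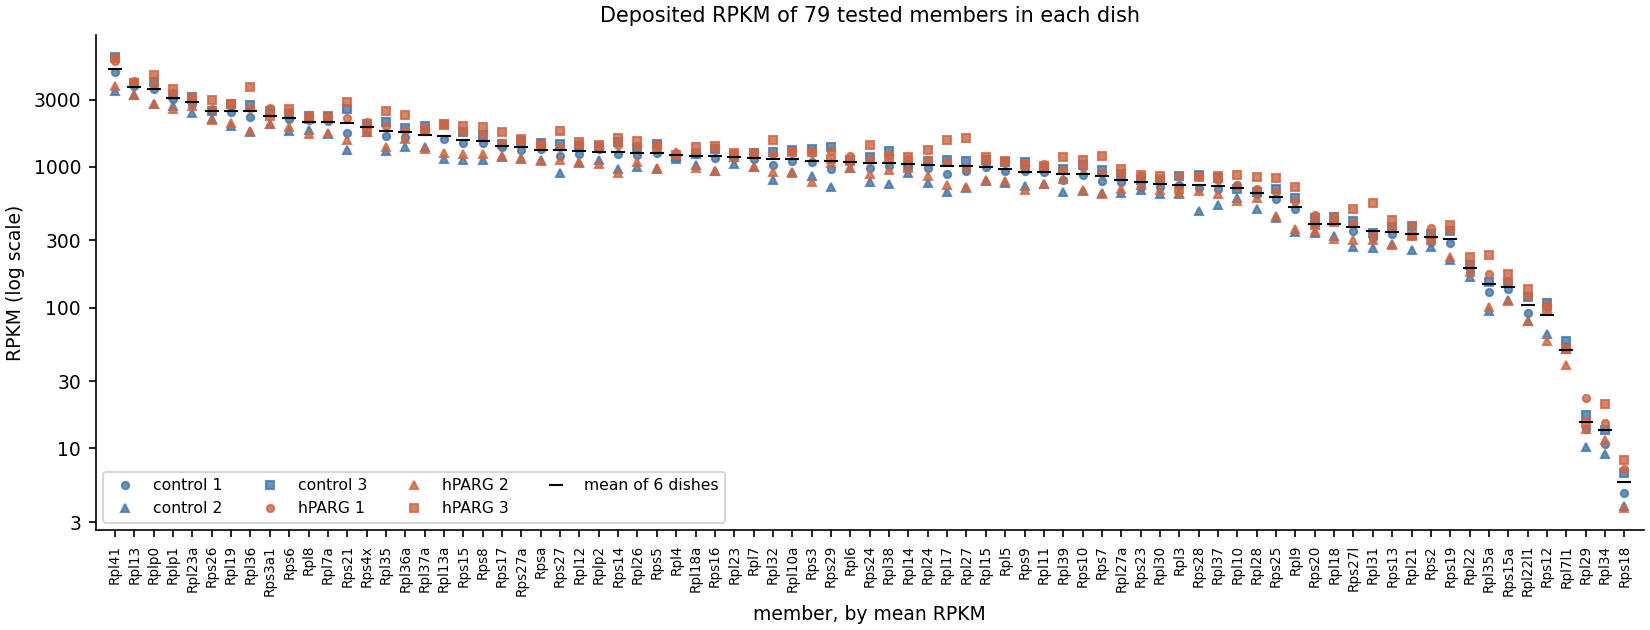
Deposited RPKM (log scale) of 79 of the 80 tested members in each of the 6 dishes, ordered by the mean over the dishes (dash). The order runs from Rpl41 with a mean of 4925 RPKM to Rps18 with 5.78 RPKM.

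For some members, most counts lay on near-identical genes. Rps18, a protein of the head of the small subunit (ENSMUSG00000008668, chromosome 17, 33951999 to 33956001), had only 96, 69 and 116 counts in control dishes 1 to 3 and 125, 72 and 150 counts in hPARG dishes 1 to 3. Gm10260 and Gm11361, which are at least 99.1% identical to its coding sequence, held 99.7% of the counts on the 3 genes together, with 152888 and 72950 counts over the 6 dishes. Summed, the 3 genes reached 2955 CPM per kilobase of transcript, against 8.20 for Rps18 alone. Rps12 lay at 150 CPM per kilobase alone and at 2861 with Rps12-ps3, which is identical to it in coding sequence and held 94.7% of the counts. Rpl10, which sits near the tRNA sites of the large subunit, lay at 865 CPM per kilobase alone and at 3520 with Rpl10-ps3, which held 75.4% of the counts. For these 3 members most counts thus lay on another gene of the table, and their own values are uncertain.

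For 13 members the table holds 15 genes with at least 95% identity over at least 80% of the coding sequence that do not overlap the member, of which 13 had counts. After the 3 members above came Rpl21 with 6.35%, Rps27 with 4.91% and Rpl29 with 1.99% of the summed counts on the copy, and for 76 of the 83 members the percentage was under 1%. Reads of an mRNA can also match pseudogenes that the table does not list: the GENCODE M21 annotation of GRCm38 holds 573 such near-identical genes, 555 of them absent from the table, and 15 members have more than 10. Low level and copy number did not run together across the 80 tested members (rho = -0.14, across genes). Rpl34 (13.4 RPKM) has 5 annotated near-identical genes and Rpl29 (15.5 RPKM) has 27, and the part of read assignment in their level was not tested. Summing each member with its near-identical genes of the table moved the log2 fold change between the groups from -0.05 to 0.21 for Rps12 and from 0.35 to 0.13 for Rps18, and from 0.13 to 0.10 for Rpl10. The 11 members whose copies had counts each had an FDR of 0.999 in edgeR's test after summing, as before it.

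A pyrimidine tract near the annotated start was a sequence feature that many members had in common and that the name rule did not use. RefSeq promoters (GRCm38.p6) were found by symbol for 63 of the 83 members, and windows of 30 bases are shown for 8 of them, to let the tract be seen in members of both subunits and its absence in Rpl7l1. Each window runs 5′ to 3′ on the gene's strand from 12 bases before the annotated start to its first 18 transcribed bases. Capitals mark a run that starts with C and goes on with at least 7 bases that are each C or T, and Rpl7l1 has no such run there.
Rps6: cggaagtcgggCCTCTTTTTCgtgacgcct
Rps27: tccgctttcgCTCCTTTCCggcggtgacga
Rps18: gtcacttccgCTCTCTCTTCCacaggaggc
Rplp2: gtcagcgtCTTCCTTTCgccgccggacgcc
Rpl35a: gggcttgCCTTCCTCTTTCCgccatcttgg
Rpl38: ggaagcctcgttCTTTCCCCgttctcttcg
Rpl22l1: cggcgcaagcccgttCTCTTCCCacggctg
Rpl7l1: aggctgcgcaagcgcagtagctgaagcacc

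The run of Rpl38 began at the annotated start itself (chr11:114668568-114668597, plus strand), that of Rps6 1 base before it (chr4:86857350-86857379, minus strand) and that of Rpl35a 5 bases before it (chr16:33056470-33056499, plus strand). Its length was 13 bases in Rpl35a, 11 in Rps18 (chr17:33955648-33955677, minus strand), 10 in Rps6 and 8 in Rpl38 and Rpl22l1 (chr3:28805496-28805525, plus strand). The windows of Rps27 (chr3:90213631-90213660, minus strand), Rplp2 (chr7:141447639-141447668, plus strand) and Rpl7l1 (chr17:46782639-46782668, minus strand) come from the same table. Within 20 bases of an annotated start, such a run began on the gene's strand for 32 of the 63 members with an entry (50.8%), against 17.8% of the other tested genes and 16.6% of all 27025 symbols. On the other strand the shares were 7.94%, 19.8% and 19.02%. A match is a description of these letters and not of a transcript's true first base. The 32 members with the run had a median log2 fold change of 0.16 and the 28 tested members with an entry and no run had a median of 0.17, so the members with and without the tract lay close together.

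The comparison of hPARG with control was made first with the group as the only term. With edgeR's quasi-likelihood test, 0 of 80 members had a Benjamini-Hochberg adjusted p (FDR) under 0.05, with or without the demand of a difference of more than 2-fold, against 10 of 11509 tested genes (0.0869%) under either rule. At an unadjusted p under 0.05 there were 0 members, against 3.95% of the tested genes. DESeq2 and edgeR's likelihood ratio test also gave 0 members at an FDR under 0.05, with 1 member each at an unadjusted p under 0.05. Over all tested genes, DESeq2 had 48 of 16896 at the FDR and 461 at the unadjusted p, and the likelihood ratio test had 65 and 476 of 11509. The smallest FDR among the members was 0.999. The intervals bound what these dishes could have shown: for 74 of the 80 members the 95% interval lay within a 2-fold difference in either direction, and for 33 within 1.5-fold. The median standard error was 0.20 for the members and 0.15 for all tested genes.

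The members' log2 fold changes were small and mostly positive. The median was 0.15, against 0.00 over all tested genes, and 77 of 80 members were above 0, against 50.9% of the tested genes. The count above 0 was 72 when libraries were scaled by their total only, 48 without control dish 2 (median 0.03), 51 without hPARG dish 3 (median 0.03), 79 without control dish 3 (median 0.30) and 79 without hPARG dish 2 (median 0.30). It was 79 without control dish 1 (median 0.17) and 65 without hPARG dish 1 (median 0.12). Leaving out a single dish gives the dishes numbered 2 unequal weight in the 2 groups, and the part of the shift in these medians was not tested. With both dishes numbered 2 left out, 76 of 80 were above 0 with a median of 0.18, and with a term for these dishes (below) 77 of 80 with a median of 0.16. The small positive median thus held where the dishes numbered 2 were treated alike in both groups, and no test was made of it. With the group only, the 67 members among the 1151 tested genes with the shortest transcripts had a median of 0.19. The other 1084 of these genes had a median of 0.03, with 57.2% of them above 0, and this difference was not tested. In only 1 member, Rpl4, did all hPARG dishes lie above all control dishes, against 3.61% of the tested genes, and in 0 members did all lie below, against 6% of the tested genes.

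A term in the model that parts the dishes numbered 2 from the other 4 took up most of this spread. With it, the median standard error fell to 0.09 for the members and 0.08 for all tested genes, and the median log2 fold change of the members was 0.16. In edgeR's test 0 of 80 members had an FDR under 0.05, against 1.53% of the tested genes, with the smallest FDR at 0.0741 for Rpl34. At an unadjusted p under 0.05 there were 25 members higher in hPARG cells (7.22% of all tested genes were higher at that p) and 1 lower, Rpl7l1. Over all 11509 tested genes, 1719 were at that p in either direction, of which 831 were higher and the rest lower. The 25 are more than the background share, but they come from the same 6 dishes and share hPARG dish 3, and none passed adjustment over the tested genes. All 80 intervals then lay within 2-fold and 72 within 1.5-fold. In the fit without both dishes numbered 2, edgeR gave 0 members at an FDR under 0.05 (0.345% of the 11589 tested genes), 8 at an unadjusted p under 0.05, all higher (403 of the tested genes were higher at that p), and 64 intervals within 1.5-fold.

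**Figure D4:**
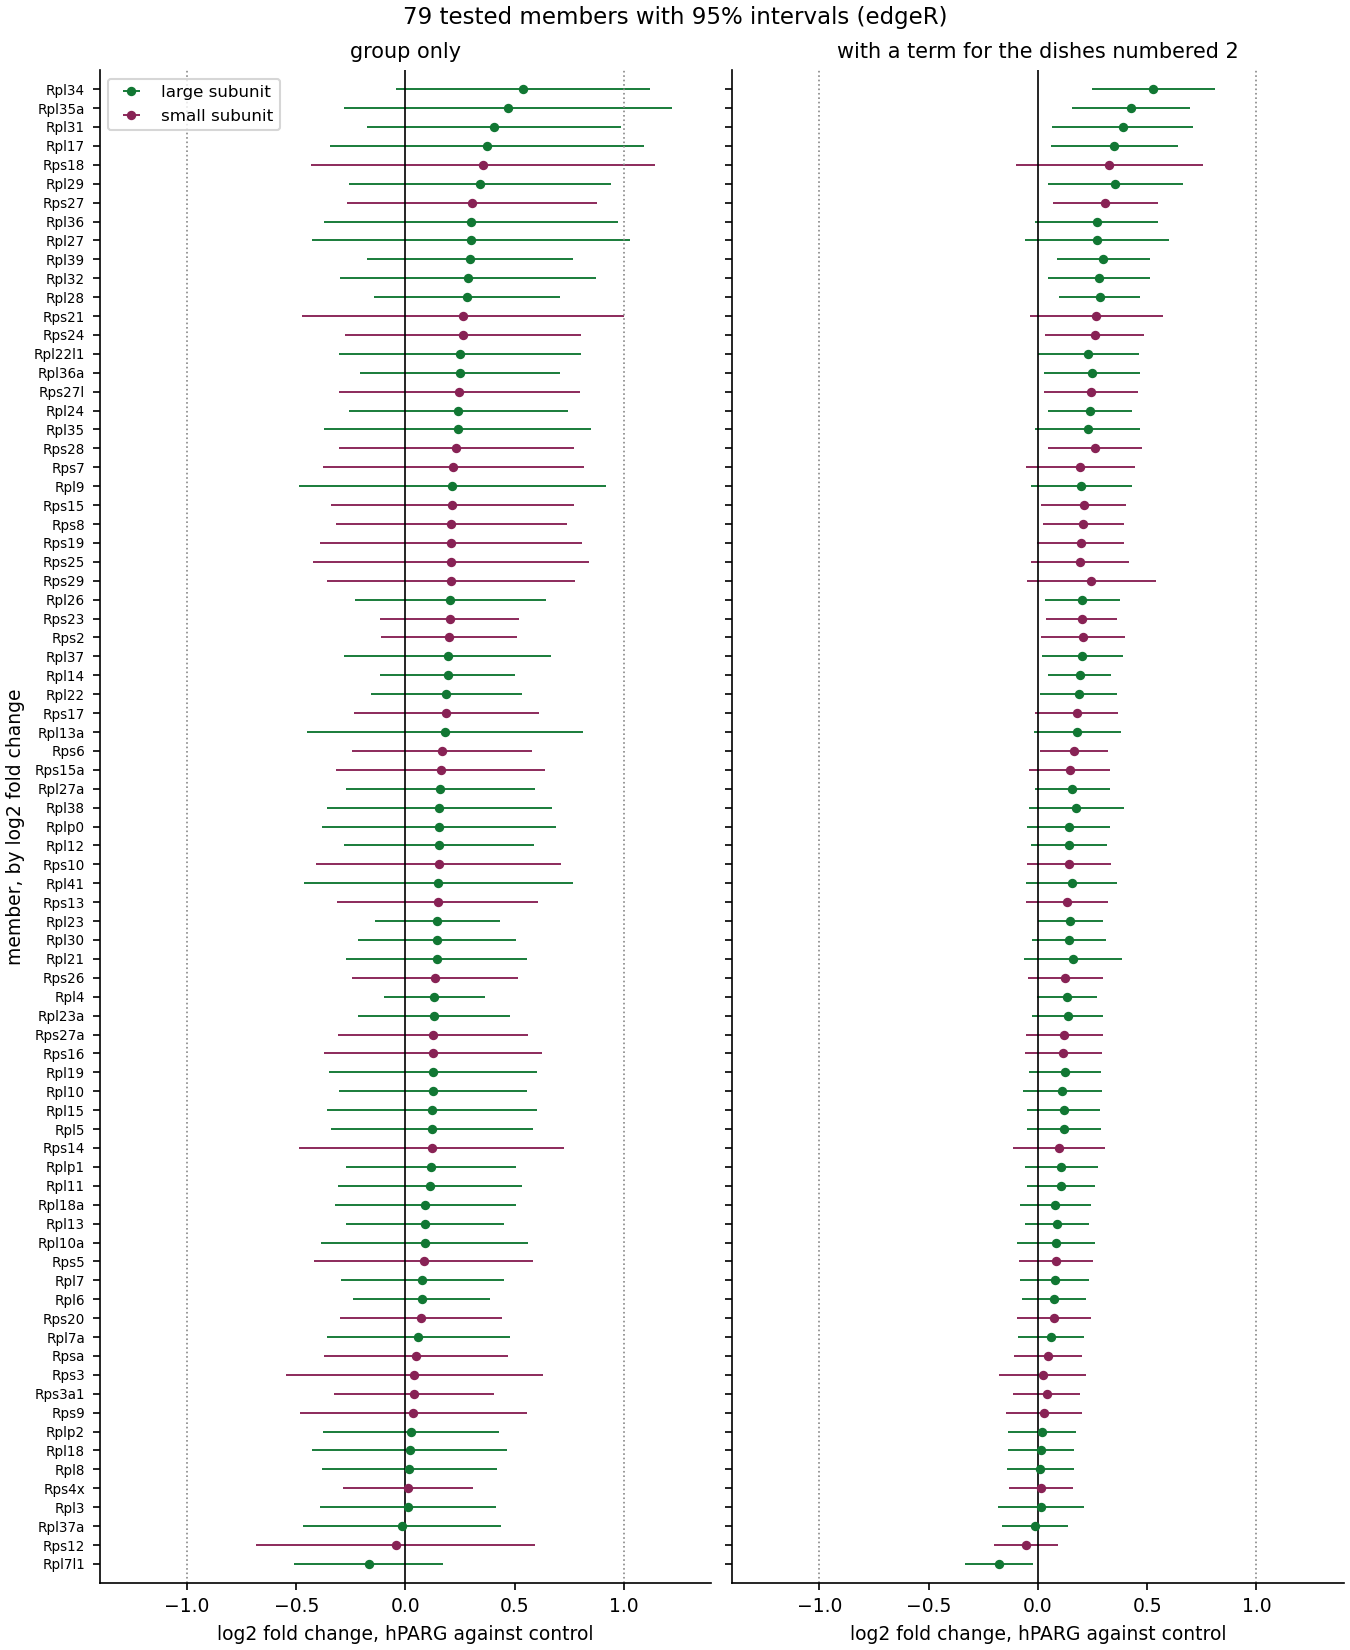
Log2 fold change of hPARG against control for 79 of the 80 tested members with 95% intervals from edgeR, with the group as the only term (left) and with a term for the dishes numbered 2 (right), dotted lines marking 2-fold. With the group only, 77 of all 80 members lie above 0, or 48 without control dish 2 and 51 without hPARG dish 3, and the intervals narrow from a median standard error of 0.20 to 0.09 with the term.

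Rpl34, a protein of the large subunit (ENSMUSG00000062006, chromosome 3, 130726831 to 130730398), had the largest log2 fold change. It had 564, 426 and 614 counts in control dishes 1 to 3 and 700, 577 and 976 counts in hPARG dishes 1 to 3, or 22.01, 18.3 and 28.9 CPM against 32.1, 23.8 and 44.8 CPM. Each dish numbered 2 was the lowest of its group and hPARG dish 3 the highest of all, and hPARG dish 2 lay within the control range. The log2 fold change was 0.54 (SE 0.25, edgeR FDR = 0.999), 0.53 with the term for the dishes numbered 2 (SE 0.13, FDR = 0.0741) and 0.60 without them (FDR = 0.229). With each dish left out in turn it lay between 0.28 and 0.74. Rpl34 was thus higher in hPARG cells in these 3 fits and passed the threshold in none of the 3, at a level of only 13.4 RPKM.

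Rpl35a, whose gene is among those mutated in Diamond-Blackfan anemia (ENSMUSG00000060636, chromosome 16, 33056453 to 33060189), had 114, 80.5 and 140 CPM in control dishes 1 to 3 and 156, 88.2 and 218 CPM in hPARG dishes 1 to 3. Its hPARG dish 2 fell below 2 of the control dishes, the widest shift of a dish numbered 2 among the members. The log2 fold change was 0.47 (SE 0.32), 0.43 with the term (FDR = 0.130) and 0.57 without the dishes numbered 2 (FDR = 0.194, the smallest among the members in that fit). With each dish left out in turn it lay between 0.14 and 0.75. The pyrimidine run of its window, the longest of those shown, was described above.

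For the next members in the order, hPARG dish 3 had the highest value of all dishes. Rpl31, at the exit of the peptide tunnel, had 498, 417 and 571 CPM in control dishes 1 to 3 and 549, 483 and 936 CPM in hPARG dishes 1 to 3. Rpl17, which also lines the tunnel exit, had 1271, 917 and 1670 CPM against 1580, 1066 and 2346 CPM. In both, hPARG dishes 1 and 2 lay within the range of the control and dish 3 above it. Each hPARG dish also lay above the control dish of the same number. Their log2 fold changes were 0.41 and 0.37, or 0.48 and 0.42 without the dishes numbered 2. The lowest values with a dish left out were 0.06 and 0.04. A single dish left out gives the dishes numbered 2 unequal weight in the groups. The part of hPARG dish 3 in these values was not tested. Dish 3 exceeded dish 1 of the hPARG group by more than 0.5 in log2 CPM for 5 members, among them by 0.77 for Rpl31, 0.74 for Rpl27, 0.57 for Rpl17 and 0.54 for Rpl36, of which Rpl27 was named after its value was seen.

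At the other end, 3 members were below 0. Rpl7l1, a paralog of Rpl7 that is linked to ribosome assembly (ENSMUSG00000063888, chromosome 17, 46773907 to 46782672), had 179, 167 and 205 CPM in control dishes 1 to 3 and 177, 132 and 181 CPM in hPARG dishes 1 to 3. Only hPARG dish 2 lay outside the control range, and the log2 fold change was -0.17 (SE 0.15, FDR = 0.999), -0.18 with the term (FDR = 0.266) and -0.10 without the dishes numbered 2. Rps12 had 82.7, 52.4 and 92.2 CPM against 87.6, 47.8 and 84.9 CPM, a log2 fold change of -0.05 (-0.02 without the dishes numbered 2) that became 0.21 when the identical Rps12-ps3 was added. Rpl37a had 1402, 1041 and 1554 CPM against 1421, 1033 and 1501 CPM, a log2 fold change of -0.02 (-0.01 without these dishes). Rps4x and Rpl3 came next, each at 0.01 (0.00 and -0.01 without these dishes). The sign of Rpl37a was not stable, at 0.01 with a correction for length and GC content. With a single dish left out, Rpl37a reached up to 0.13 and Rps12 up to 0.19. Pairs of dishes with the same number were nearly alike in Rpl37a, so its value between the groups was close to 0 while its spread between dishes was wide.

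**Figure D5:**
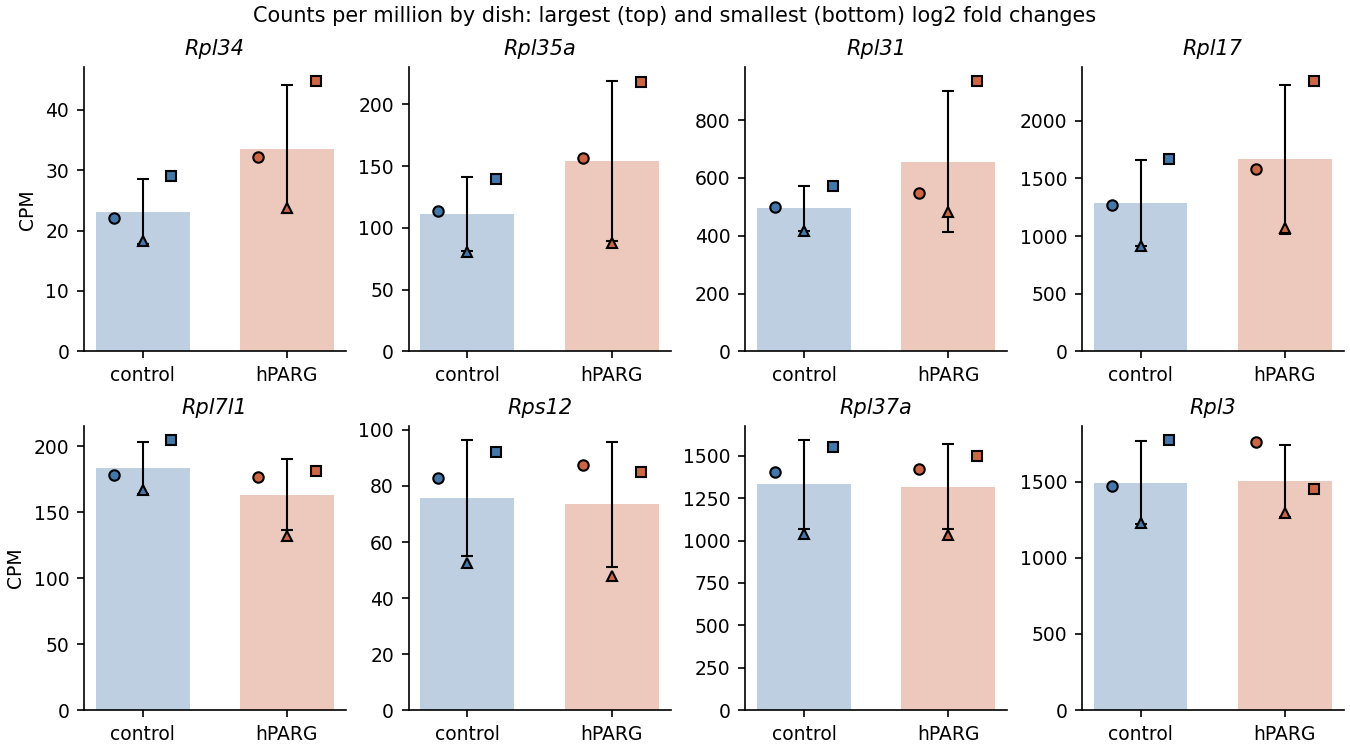
CPM of the 4 members with the largest (top) and the 4 with the smallest (bottom) log2 fold change, with dish 1 as circle, dish 2 as triangle and dish 3 as square, bars for the group mean and error bars for the SD (n = 3). Dish 2 is the lowest of its group in each of the 8 members, and in Rpl31 and Rpl17 only hPARG dish 3 lies above the control dishes.

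Rpl4, a large subunit protein that reaches into the peptide tunnel (ENSMUSG00000032399, chromosome 9, 64173375 to 64178666), shifted least of the 80 tested members in the dishes numbered 2 of both groups. It was named after its values were seen. It had 1928, 1932 and 1947 CPM in control dishes 1 to 3 and 2126, 2109 and 2129 CPM in hPARG dishes 1 to 3. All 3 hPARG dishes lay above all control dishes, and no dish stood apart within its group. Its log2 fold change was 0.13 (SE 0.10, edgeR FDR = 0.999), 0.13 with the term (FDR = 0.351), and between 0.13 and 0.14 with each dish left out. Its standard error was the smallest of the 80 members, and edgeR sets it with the help of the spread of other genes. Its annotated transcript of 1538 bases is longer than the members' median. Rps15a, with the longest annotated transcript of the tested members, shifted by -0.40 in control dish 2 and -0.61 in hPARG dish 2. Whether the annotated lengths are those of the mRNAs in these cells was not tested.

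The P stalk, which recruits the translation factors with GTPase activity, consists of Rplp0 and of Rplp1 and Rplp2. Rplp0 (chromosome 5, 115559467 to 115563727) held more counts than any other member, with 6037, 4641 and 7063 CPM in control dishes 1 to 3 and 6818, 4781 and 8142 CPM in hPARG dishes 1 to 3. Rplp1 had 1623, 1407 and 1802 CPM against 1821, 1391 and 2026 CPM. Rplp2 had 1500, 1223 and 1656 CPM against 1571, 1188 and 1696 CPM. The groups overlapped in all 3, with dish 2 lowest. The log2 fold changes were 0.15, 0.12 and 0.02, and 0.20, 0.17 and 0.05 without the dishes numbered 2. The sign was not stable in any of the 3: Rplp0 had -0.03 without hPARG dish 3, Rplp1 had -0.06 with a correction for length and GC content and -0.00 without that dish, and Rplp2 had -0.00 with library size only and down to -0.09 with a dish left out. Per length, Rplp1 and Rplp2, which form dimers on the stalk, differed in level, with 3077 and 1281 RPKM.

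Some paralogs can replace a ribosomal protein in some ribosomes or tissues. Rpl22l1 had 61.8, 52.8 and 83.5 CPM in control dishes 1 to 3 and 84.1, 54.5 and 97.0 CPM in hPARG dishes 1 to 3, and its parent Rpl22 398, 357 and 462 CPM against 451, 398 and 537 CPM. Their log2 fold changes were 0.25 and 0.19 (0.32 and 0.20 without the dishes numbered 2), so paralog and parent differed by less than either standard error (0.24 and 0.15). In RPKM, Rpl22l1 reached 105 and Rpl22 192, Rps27l, a target of p53, 373 and Rps27 1309, and Rpl7l1 50.4 and Rpl7 1148. On counts per kilobase of all annotated exons, these pairs had 36.1 and 149, 289 and 831, and 49.5 and 584. The gap of Rpl22l1 to Rpl22 was thus the smallest in RPKM but wider than that of Rps27l to Rps27 on exon length. Rps27l and Rps27 had log2 fold changes of 0.25 and 0.30, and Rpl7 had 0.08, or 0.26, 0.30 and 0.09 without these dishes. The paralogs restricted to muscle or testis, Rpl3l, Rpl10l and Rpl39l, were those at or near 0 counts, while their parents Rpl3, Rpl10 and Rpl39 had 742, 703 and 896 RPKM. Rpl39 had a log2 fold change of 0.30 (FDR = 0.178 with the term), and all 7 parents in the list were above 0 with a median of 0.13. Without the dishes numbered 2 the median was 0.19, and Rpl3 was below 0. With library size only, the parents Rpl3 and Rps4x were both at -0.01. With a single dish left out, Rpl3, Rpl7, Rpl10 and Rps4x fell below 0, down to -0.12 for Rpl3.

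Members with known roles outside the ribosome did not stand out. Rpl5 and Rpl11, which bind MDM2 together with 5S rRNA, had 2257 ± 459 and 920 ± 157 CPM (SD, n = 3) in the control and 2456 ± 475 and 993 ± 185 CPM in hPARG cells, with log2 fold changes of 0.12 and 0.11. Rpl23 and Rpl26, which also act on MDM2 or p53, had log2 fold changes of 0.15 and 0.21. Rps6, the protein that S6 kinases phosphorylate, had 2056, 1643 and 2312 CPM in control dishes 1 to 3 and 2381, 1817 and 2541 CPM in hPARG dishes 1 to 3, with overlapping groups and a log2 fold change of 0.17 (SE 0.18). Rps3, which has a nuclease activity studied in DNA repair, had a log2 fold change of 0.04, and Rpl13a, a translational repressor in the interferon response, had 0.18. Rps19 and Rps14, whose loss impairs red cell formation, had 0.21 and 0.12. Rpl38, known for patterning of the skeleton, Rps27a, which is made as a fusion with ubiquitin, and Rpsa, the laminin receptor precursor, had 0.15, 0.13 and 0.05. All 12 were above 0 with a median of 0.14, or 0.15 without the dishes numbered 2, but 7 of them (Rpl5, Rpl11, Rps3, Rpl13a, Rpl38, Rpsa and Rps14) fell below 0 with a single dish left out, down to -0.13 for Rps3. None of the 12 passed the test in any of the fits with the group alone, with the term or without these dishes.

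Ribosomal proteins and partners that the name rule leaves out gave like values. Fau, the fusion gene of the small subunit protein eS30, had 1355 ± 319 CPM (SD, n = 3) in the control and 1483 ± 370 in hPARG cells. Rack1, a scaffold on the small subunit, had 3995 ± 866 and 4142 ± 940 CPM. These and Rpl36al had log2 fold changes between 0.05 and 0.20, and their shifts of dish 2 lay between -0.58 and -0.51 in the control and between -0.69 and -0.61 in hPARG cells, at least as low as the members' medians. The 19 other genes with TOP mRNAs had a median transcript of 1918 bases and median shifts of dish 2 of -0.13 and -0.12. Their median log2 fold change was 0.09, with 15 above 0, where 50.9% of all tested genes were above 0. In edgeR's test 0 had an FDR under 0.05 and 0 an unadjusted p under 0.05, against 0.0869% and 3.95% of all tested genes. The most abundant were Eef1a1 (18381 CPM, log2 fold change 0.10) and Vim (0.08). The TOP mRNAs outside the ribosome, which are longer, thus shared little of the shift.

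Genes that make or regulate ribosomes were counted from lists. Of 36 ribosome biogenesis factors, all tested, 4 were above 0 and 32 below, where 50.9% of all tested genes were above 0. Their median log2 fold change was -0.10, and -0.09 without the dishes numbered 2, while the members' median was 0.15. In edgeR's test 0 of the 36 had an FDR under 0.05, against 0.0869% of all tested genes, and 1 an unadjusted p under 0.05, against 3.95%. With the term 0 were higher and 1 lower, Tsr1 (log2 fold change -0.33, FDR = 0.0201), named after its value was seen. In that fit 113 of the 11509 tested genes were lower (1.53% passed in either direction). Without the dishes numbered 2, Tsr1 had -0.27 and did not pass (FDR = 0.448). The most abundant of these were Ncl with 1234 CPM and a log2 fold change of 0.10 and Nop56 with 402 CPM and -0.03. Of 11 genes of RNA polymerase I and its factors, 3 were above 0 and 8 below (median -0.07), led by Polr1d (0.03) and Ubtf (-0.10), with 0 past an FDR of 0.05 with or without the term and 0 at an unadjusted p under 0.05 without it. Of 16 regulators of ribosomal protein synthesis, 15 were tested, with a median of 0.02, or -0.02 without the dishes numbered 2. Of the 15, 0 had an FDR under 0.05 and 1 an unadjusted p under 0.05, against 0.0869% and 3.95% of all tested genes. With the term 1 of them was lower, Myc (log2 fold change -0.33, FDR = 0.0201), also named after its value was seen and against the same 1.53%, and it did not pass without the dishes numbered 2 (-0.30, FDR = 0.371). Mdm2 with 1562 CPM and Larp1 with 329 CPM, the most abundant of this list, had -0.07 and 0.15.

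The 78 mitochondrial ribosomal protein genes, all tested, are the nearest family by function. Together they took from 0.363% to 0.506% of a dish's counts, and their median shift of dish 2 was -0.37 in the control and -0.41 in hPARG cells at a median transcript of 1251.5 bases. Their median log2 fold change was -0.01, with 33 above 0 and 45 below, where 50.9% of all tested genes were above 0. Without the dishes numbered 2 the median was 0.01. In edgeR's test 0 had an FDR under 0.05 and 0 an unadjusted p under 0.05, against 0.0869% and 3.95% of all tested genes. The most abundant were Mrpl12 (-0.09) and Mrpl33 (0.03). This family therefore shared the shift of the dishes numbered 2 with the cytosolic members. Its median log2 fold change lay nearer to 0 than theirs, a difference between the families that was not tested. The 7 snoRNA host genes of the last list had 0 counts in every dish and gave no value. The same holds for 19850 of the 19868 genes of the table that are not annotated as protein coding, against 5071 of 21951 protein-coding genes, so these zeros are not a measure of expression.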

How the data were processed

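Gene-level RNA-seq data of 6 dishes (3 control, 3 hPARG) were used, with poly(A) selection before sequencing. The authors deposited counts, whole numbers per gene that carry no normalization, after mapping trimmed paired reads to GRCm38 with the Ensembl annotation in CLC Genomics Workbench, which placed reads with up to 10 hits. Whether strand was used in counting is not given in the sources used here. The authors also deposited RPKM, counts divided by gene length and a library total, which were used for levels only. The deposited table further holds TPM and CPM, and columns of the authors' own comparison (fold changes, p-values, FDR and Bonferroni values, largest group means), none of which were used.

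Genes were filtered with filterByExpr (minimum count 10), scaled by TMM and tested in edgeR 4.0.16 by its quasi-likelihood functions glmQLFit and glmQLFTest (limma 3.58.1, R 4.3.3), with Benjamini-Hochberg adjustment over the 11509 tested genes. A gene was called at an FDR under 0.05 and more than 2-fold. CPM values are TMM-normalized. Standard errors are the size of the log2 fold change over the square root of F, and intervals are 95% intervals. Shares of counts were compared with exact permutation tests (scipy 1.17.1). Total counts ranged from 21619908 to 25263818 per dish, and the median standard error of the members was 0.20 with 3 dishes per group. The fits were tested on simulated data. Transcript length is that of the annotated principal transcript. Near-identical genes were found with BLAST 2.17.0 (at least 95% identity over 80% of the coding sequence). All 41819 identifiers were found in GENCODE M21, and 177 names differed, none of a member. Promoters came from RefSeq, and tables were handled with Python 3.11.15, pandas 2.3.3, numpy 2.4.6 and matplotlib 3.10.9.

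The text names members called under any threshold, the 10 with the highest level per length, members among the 5 with the largest and the 5 with the smallest log2 fold change, those not tested, and the lists of the P stalk, paralogs, their parents, members with extra roles and ribosome proteins outside the rule, without 1 gene of these and 1 member, whose results are not given. Of the other lists (other TOP mRNAs, biogenesis factors, RNA polymerase I, regulators, snoRNA host genes, mitochondrial ribosomal proteins and cell type markers) it names the 2 most abundant genes, genes under an FDR of 0.05 at any fold change with the term for the dishes numbered 2, and some markers at or near 0 counts. The members and lists were chosen with earlier results of these data known. Alternatives were RLE factors, library size only, DESeq2 1.42.0, the likelihood ratio test, other filters, a replicate block, a term for the dishes numbered 2, leaving these or each dish out, a correction for exon length and GC content (splines with 4 degrees of freedom) with and without the block, pseudogenes added, other denominators of the share, and counts per kilobase of exon length. Sums with near-identical genes, a denominator outside the mitochondrial genome and the dish shift with library size only were added after the data were seen.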

Additional observations from a re-analysis of the deposited data

How the results depend on the processing

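With 3 dishes per group of 1 clone, the median standard error of the members was 0.20, and 0.09 once a term for the dishes numbered 2 was added. Of the 11509 tested genes, 10 were called. The number was 22 with DESeq2 (16896 tested), 30 with the likelihood ratio test, 16 with no filter (16898 tested), 22 with the term for the dishes numbered 2, 19 without these dishes (11589 tested), 18 with the length and GC correction, and between 3 (without hPARG dish 1) and 13 with each dish left out (11594 to 11694 tested). The cause was not tested. The number of members called was 0 under every alternative run, edgeR and DESeq2 alike. The members' median log2 fold change lay between 0.13 and 0.18 with 4 or 6 dishes in balance, and between 0.03 and 0.30 with a single dish left out. The difference in share lay between 0.836 and 1.07 points under other denominators and member lists and between -0.0714 and 1.998 with a dish left out. The median level was 1070 RPKM, and 666 on counts per kilobase of annotated exon length, which is as long as or longer than the length behind RPKM. The shift of the dishes numbered 2 was -0.41 and -0.46 with library size only. Among the 56 named genes with a fit, none became called or reversed a call, and at most 3 changed sign in fits with all 6 dishes and at most 21 with a dish left out. With the replicate number as a block (replicate block), 23 tested genes were called, and 15 members had an FDR under 0.05 at any fold change, all higher, among 330 such genes, with Rpl34 (FDR = 0.00348), Rpl39 (0.00903), Rps27 (0.00903), Rpl17 (0.00941), Rpl35a (0.0160), Rps21 (0.0194) and Rps27l (0.0303) of the members named in the text; with the length and GC correction and the replicate block these were 25 called genes and 22 members among 460. Across genes, r between the deviations of same-numbered dishes was 0.0963, 0.610 and 0.168, which is not over 0.1 for every pair, and control dish 1 correlated best with hPARG dish 3 (r = 0.207) and control dish 3 with hPARG dish 1 (r = 0.335), so the numbers were not taken to pair the dishes. The difference in share with the block was 0.858 points, positive for each number (1.32, 0.437 and 0.818, exact p = 0.25). The cause was not tested.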
